A study of Rattus norvegicus with 18 samples.

Results

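Rat liver sinusoidal endothelial cells kept in culture for 42 h (LSEC_42h, 4 arrays) were set against rat lung microvascular endothelial cells measured without culture (LMEC_0h, 5 arrays). These 9 of the study's 18 Affymetrix arrays were taken by their sample titles, and all 11018 genes with 1 symbol were tested. Both cell types came from enzymatic digestion of the organ, a density gradient and magnetic sorting. The LSEC_42h cells were then plated on collagen-coated dishes, and RNA was taken after 42 h. The arrays of freshly isolated liver sinusoidal endothelial cells (LSEC_0h, 5 arrays) are used here for the organ difference before culture. The labels give no strain, age or animal for an array, so the p-values measure only the spread between arrays, which may be technical. The LSEC_42h arrays differ from LMEC_0h in organ, in culture and in the poly-A labelling controls given below. These cannot be told apart from the 9 arrays alone.

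The sinusoidal endothelium of the liver is a fenestrated lining without an organised basement membrane, and it clears waste from blood through scavenger and Fc receptors. The capillary endothelium of the lung is a continuous lining, rich in caveolae and sealed by junctions. Sinusoidal cells placed in culture lose their fenestrae and much of their organ-specific expression, a process called dedifferentiation. The comparison asks which differences between the organs persist after that process and which no longer appear.

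The labelled cell types were checked first. The pan-endothelial list averaged between 9.51 and 9.91 on the LSEC_42h arrays and between 9.85 and 10.26 on the LMEC_0h arrays, on the deposited log2 scale. The junction gene Cdh5, which encodes VE-cadherin, read 10.84, 11.14, 11.66 and 11.54 in LSEC_42h and 11.82, 12.18, 11.74, 11.95 and 11.98 in LMEC_0h. The LSEC_42h arrays also kept the sinusoidal Fc receptor gene Fcgr2b. Most other sinusoidal genes were lower in LSEC_42h than in freshly isolated LSEC_0h. They included 13 of 14 transcription and secreted factors and 15 of 15 enzyme, transporter and chemokine genes, where 20.8% of all genes were lower. Of 13 scavenger and endocytic receptors 5 were lower and 3 higher. The LMEC_0h arrays had Vwf, a gene of continuous endothelium, and the lung endothelial genes Car4 and Tmem100, all given further on. Lung epithelial and mesenchymal transcripts were also present in LMEC_0h. The 19 lung epithelial markers averaged 9.09 to 10.45 there and 6.6 to 6.7 in LSEC_42h, and the 24 mesenchymal markers averaged 8.02 to 8.79 against 6.27 to 6.56. In such bulk samples fewer cells of a type and less RNA per cell cannot be told apart.

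Array quality moved with the groups in part. Pearson's r over all gene probe sets was 0.9694 to 0.9892 among the LSEC_42h arrays, 0.9574 to 0.9855 among the LMEC_0h arrays and 0.7826 to 0.8329 between them. The 24 probe sets for the bacterial poly-A transcripts that some protocols add before labelling averaged 7.68 to 7.86 in LSEC_42h, 5.66 to 5.68 in LMEC_0h and 5.72 to 5.74 in LSEC_0h. They averaged 7.62 to 8.37 on the study's 4 LSEC_2h arrays, of liver cells at 2 h. Both fresh groups were low, so a difference in labelling cannot be told apart from culture. The highest group mean of any of these probe sets in fresh cells, 6.26, served as the background level. A group mean at or below 6.26 is given as a bound, so that a fold against it reads "at least". The difference between the 3′ and 5′ Actb control probe sets, which can grow as RNA breaks down, was 1.85 ± 0.04 (SD, n = 4) in LSEC_42h and 1.04 ± 0.16 (SD, n = 5) in LMEC_0h, on the log2 scale. On the LSEC_0h arrays it ran from 0.91 to 1.28, so the shift also went with culture. The difference of 0.8 between LSEC_42h and LMEC_0h had p = 0.0159 in a two-sided exact permutation test, the smallest that 4 against 5 arrays allow, and 0.0317 adjusted over 2 tests. Leaving out any 1 array gave adjusted p-values of 0.0571 to 0.0714, with differences of 0.78 to 0.87. The same measure for Gapdh was 0.35 ± 0.04 and 0.46 ± 0.18, with an exact permutation p of 0.286. The part of these 2 measures in the gene differences was not tested.

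Of the 11018 genes, 6814 (61.8%) passed an adjusted p of 0.05 in limma, 4394 (39.9%) higher in LSEC_42h and 2420 (22%) higher in LMEC_0h. Most called differences were small, and 72.1% of all genes lay within 1.5-fold. At least 2-fold, 568 genes (5.16%) were higher in LSEC_42h and 825 (7.49%) were higher in LMEC_0h. The arrays of the 2 groups did not overlap for 5617 genes (51.0%). The median difference over all genes, LSEC_42h minus LMEC_0h, was 0.09 on the log2 scale. Between the fresh cells of the organs, LSEC_0h against LMEC_0h, 5235 genes (47.5%) were called, 3053 of them higher in LSEC_0h. Between cultured and fresh liver cells, LSEC_42h against LSEC_0h, 5570 genes (50.6%) were called, 3276 of them higher in LSEC_42h. These 3 comparisons share arrays, so their values are set side by side without a test of their likeness. For any gene, the change from LSEC_0h to LSEC_42h is the change in its distance from LMEC_0h. It is called the change in culture below, and the part of labelling in it was not tested.

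The gene furthest above lung endothelium at 42 h was Fcgr2b, which encodes the inhibitory Fc gamma receptor IIb that removes immune complexes in sinusoids. It read 13.40, 13.03, 13.15 and 13.28 in LSEC_42h and 7.12, 7.12, 9.48, 8.15 and 7.41 in LMEC_0h, which is 41-fold apart (log2 difference 5.36 with SE 0.34, adjusted p = 4.48e-10 in limma). All 4 cultured arrays stood above all 5 lung arrays, among which array 20 was highest. Akr1b8, an aldo-keto reductase that detoxifies aldehydes, read 13.37, 12.99, 12.72 and 13.11 against 7.27, 8.29, 7.60, 8.51 and 7.69, which was 36.1-fold higher (log2 5.17, SE 0.41, adjusted p = 8.27e-09). Unlike Fcgr2b, it was low in fresh liver cells, at 7.25 ± 0.68 (SD, n = 5). Dnase1l3, which encodes a secreted nuclease that degrades DNA in plasma, read 10.54, 10.98, 11.51 and 12.28 against 6.42, 6.36, 6.51, 6.40 and 6.66, a 29-fold difference. The next genes were Gsta1, a glutathione S-transferase (24.3-fold), Fabp4, a fatty acid carrier of endothelium and adipocytes (21.4-fold), the phosphodiesterase gene Pde2a (12.1-fold), Ugp2, which makes UDP-glucose (12-fold), and Clec1b, a C-type lectin receptor gene (11.8-fold). The potassium channel gene Kcnj8 was 11.7-fold higher, and Nipsnap3b, Tst and Lpin3 were 7.81, 7.8 and 7.67-fold higher. Values near the top of an array, where the maxima were 13.48 to 13.69, may understate a difference, which was not tested.

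**Figure D1:**
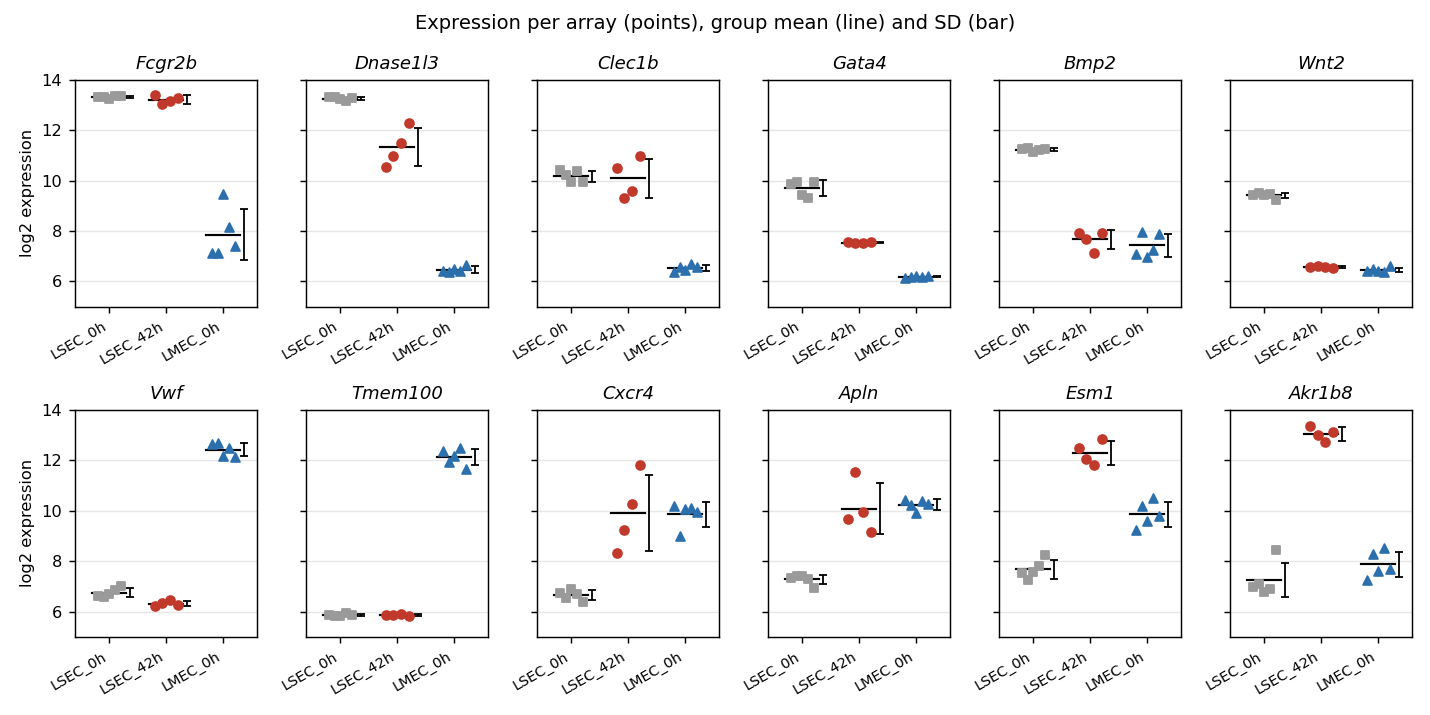
Log2 expression of 12 genes on each array of LSEC_0h (grey squares), LSEC_42h (red circles) and LMEC_0h (blue triangles), one panel per gene, with a line at each group mean and a bar of 1 SD. Fcgr2b, Dnase1l3 and Clec1b stay far above lung at 42 h. Bmp2 and Wnt2 come down near lung and are not called over all arrays, and Cxcr4 spreads from 8.33 to 11.83 across the cultured arrays.

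At the other end, the genes furthest above the cultured liver cells were mostly genes of lung epithelium, lung capillaries and connective tissue. Sftpc, the gene of surfactant protein C from alveolar epithelium, read 13.52, 13.12, 13.42, 12.97 and 12.96 in LMEC_0h and 6.23, 6.15, 6.11 and 6.07 in LSEC_42h, a difference of at least 122-fold. Vwf, which encodes von Willebrand factor of endothelial storage granules, read 12.66, 12.67, 12.16, 12.50 and 12.13 against 6.21, 6.35, 6.44 and 6.25, which was 69.1-fold higher in LMEC_0h (log2 -6.11, SE 0.12, limma adjusted p = 8.28e-17). Tmem100, a membrane protein gene of lung endothelium induced by BMP signalling, was at least 58.4-fold higher in LMEC_0h, at 12.13 ± 0.33 (SD, n = 5) against 5.86 ± 0.03 (SD, n = 4). The groups were separate in all 3. Fos (at least 56.4-fold), Mfap4 (at least 46.3-fold), the matrix calcification inhibitor gene Mgp (49.4-fold), the surfactant protein gene Sftpa1 (at least 37.9-fold), the Wnt inhibitor gene Wif1 (at least 35.3-fold), the sodium channel gene Scn7a (at least 37.4-fold), Tspan8 (39.4-fold), the collagen gene Col3a1 (38.2-fold) and Fmo1 (at least 34.3-fold) followed. Sftpc and Sftpa1 belong to the epithelial list, and Mfap4, Mgp and Col3a1 to the mesenchymal list, whose array means are given above; their part in these folds was not tested.

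Organ differences were taken as genes at least 8-fold apart between fresh LSEC_0h and LMEC_0h with no overlap of arrays (38.7% of all genes did not overlap there), 38 higher in liver and 87 higher in lung. On the liver side the largest that persisted at 42 h were Fcgr2b, Dnase1l3, Pde2a and Clec1b, then the endocytic recycling gene Micall2, the secretory phospholipase receptor gene Pla2r1, the membrane trafficking gene Ehd3 and the clathrin adaptor gene Ap1b1. Clec1b read 10.48, 9.32, 9.59 and 10.98 in LSEC_42h and 6.39, 6.57, 6.46, 6.68 and 6.55 in LMEC_0h, and its distance from lung was 3.65 in fresh cells and 3.56 at 42 h on the log2 scale. Its change in culture was -0.08 (limma adjusted p = 0.798), as that of Fcgr2b was -0.10 (adjusted p = 0.834). Dnase1l3 lost more of its distance, from 6.78 to 4.86, a change of -1.92 (adjusted p = 4e-06), yet its 4 cultured arrays were all above 10.5 and its 5 lung arrays all below 6.7. Pde2a stood at 4.34 fresh and 3.59 at 42 h. Micall2 was at least 5.65-fold and Pla2r1 at least 4.24-fold above lung at 42 h, and Ehd3 and Ap1b1 were 5.09-fold and 4.56-fold above it. Ehd3 had been 34.8-fold above lung in fresh cells.

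On the lung side the largest organ differences at 42 h were those of Sftpc, Tmem100, Vwf, Mfap4, Sftpa1, Mgp, Wif1 and Scn7a. Tmem100 lay 6.26 below lung on the log2 scale in both fresh and cultured liver cells, and its change in culture was called neither way (adjusted p = 0.991 in limma). Both liver groups were below background for Tmem100, so a change between them could not be seen. Vwf lay 5.67 below lung in fresh liver cells and 6.11 below at 42 h, with a change of -0.44 (adjusted p = 0.00707).

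The sinusoidal transcription and secreted factors were followed as a list of 14 measured genes. At 42 h 7 were above lung, 4 were below it and 3 were not called, with a median difference of 0.34 beside 0.09 over all genes, of which 39.9% were above lung and 22% below. In fresh cells 11 of the 14 had been above lung, 1 below and 2 not called, with a median of 1.99, where 27.7% of all genes were above lung and 19.8% below. Gata4, the transcription factor that specifies sinusoidal rather than continuous endothelium in the mouse liver, read 7.55, 7.51, 7.54 and 7.55 in LSEC_42h and 6.15, 6.18, 6.20, 6.17 and 6.22 in LMEC_0h. It stayed at least 2.43-fold above lung (limma adjusted p = 6.13e-08), although its distance had shrunk from 3.52 to 1.35 on the log2 scale. Tfec, a transcription factor gene of the MiT family, was at least 3.39-fold above lung at 42 h, with 8.02 ± 0.31 (SD, n = 4) against 5.98 ± 0.12 (SD, n = 5). Maf, which encodes c-MAF, and Lmo3, a LIM-domain gene, had distances of 3.44 and 2.68 fresh and 0.58 and 0.78 at 42 h, the latter at least 1.5-fold. Pianp, which encodes the liver endothelial junction protein named in the study's title, fell from 3.08 above lung to 0.47 above it, and its 4 cultured arrays (7.16 to 7.34) did not overlap the 5 lung arrays (6.67 to 6.81). The Wnt amplifier gene Rspo3 was at least 1.19-fold above lung, and Hgf, the gene of hepatocyte growth factor, 0.64 above it.

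Several liver genes were no longer told from lung at 42 h. Bmp2, whose product drives hepcidin in hepatocytes, read 7.92, 7.69, 7.15 and 7.92 in LSEC_42h and 7.08, 7.95, 6.97, 7.23 and 7.90 in LMEC_0h, after 11.23 ± 0.07 (SD, n = 5) in fresh liver cells. The groups overlapped, and the difference was 0.24 (95% interval -0.17 to 0.66, adjusted p = 0.299 in limma). Without LMEC_0h arrays 19 and 22, the highest in inflammatory genes, it was 0.57 (adjusted p = 0.00612). Those arrays also held the highest lung Bmp2 values, so leaving them out could only raise the difference. Wnt2, the Wnt ligand of sinusoidal cells that acts on hepatocytes, read 6.58, 6.61, 6.57 and 6.54 against 6.41, 6.50, 6.40, 6.37 and 6.60, a difference of 0.12 (95% interval -0.18 to 0.41). It had stood 2.96 above lung in fresh cells. Of the 15 sinusoidal enzymes, transporters and chemokine genes, 14 had been above lung in fresh cells and none below, with a median of 3.09. At 42 h 7 were above, 2 below and 6 not called, with a median of 0.08. Of all genes 27.7% were above lung in fresh cells, and 39.9% were above and 22% below at 42 h. Cd5l, in this list, is also a macrophage marker, and the part of other liver cells in these counts was not tested. The chemokine gene Ccl24 went from 3.96 above lung to -0.11, the semaphorin receptor gene Plxnc1 from 2.7 to -0.08 and Cyp26a1, which breaks down retinoic acid, from 3.95 to -0.39 (95% interval -0.88 to 0.10). The Cyp26a1 difference was called when limma used only the 9 arrays compared (adjusted p = 0.0117) and with array weights (adjusted p = 0.0398), so its call depends on how the spread is estimated. A p that misses the threshold does not show equal levels, and the intervals give what remains possible.

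The 8 liver-high organ genes nearest to lung at 42 h, a rank of distance at 42 h and not of change, were Ahsg, Hpse, Gc, Cd5l, Ccl24, Clec4f, Ccdc80 and Emilin1. Hpse, which encodes the heparan sulfate cleaving enzyme heparanase, went from 3.01 to -0.03, and Emilin1, an elastic fibre glycoprotein gene, from 3.47 to 0.20. Ahsg and Gc are hepatocyte genes, and Cd5l and Clec4f are Kupffer cell genes. The hepatocyte list averaged 7.85 to 9.33 in LSEC_0h, 6.21 to 6.34 in LSEC_42h and 6.44 to 6.54 in LMEC_0h, and Alb, the albumin gene, averaged 12.18 in LSEC_0h and 6.49 in LSEC_42h. The macrophage list averaged 7.82 to 10.3 in LSEC_0h and 6.61 to 7.04 in LSEC_42h. The part of these cells in the loss of Ahsg, Gc, Cd5l and Clec4f was not tested, and both groups were at or below background for Ahsg, Gc and Cd5l at 42 h, so no fold is given for them.

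Some sinusoidal genes ended below lung. Ackr4, a scavenging receptor gene for homeostatic chemokines, was 6.71-fold above lung in fresh cells and at least 4.21-fold below it at 42 h. Its arrays read 6.17, 6.22, 6.08 and 6.14 in LSEC_42h and 8.37, 8.30, 8.42, 8.84 and 7.73 in LMEC_0h, without overlap (limma adjusted p = 4.85e-07). Adamts1, a secreted protease gene, was 1.85-fold above lung fresh and 4.81-fold below at 42 h. Jam2, a junctional adhesion molecule gene, was 1.59-fold above and then 5.29-fold below. The homeobox gene Meis1 and Tmem26 had not been called between the fresh organs and were 2.9-fold and 2.28-fold below lung at 42 h. No gene that was at least 8-fold apart between the fresh organs was called at least 2-fold apart the other way at 42 h, since Ackr4 had been below that fold.

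**Figure D2:**
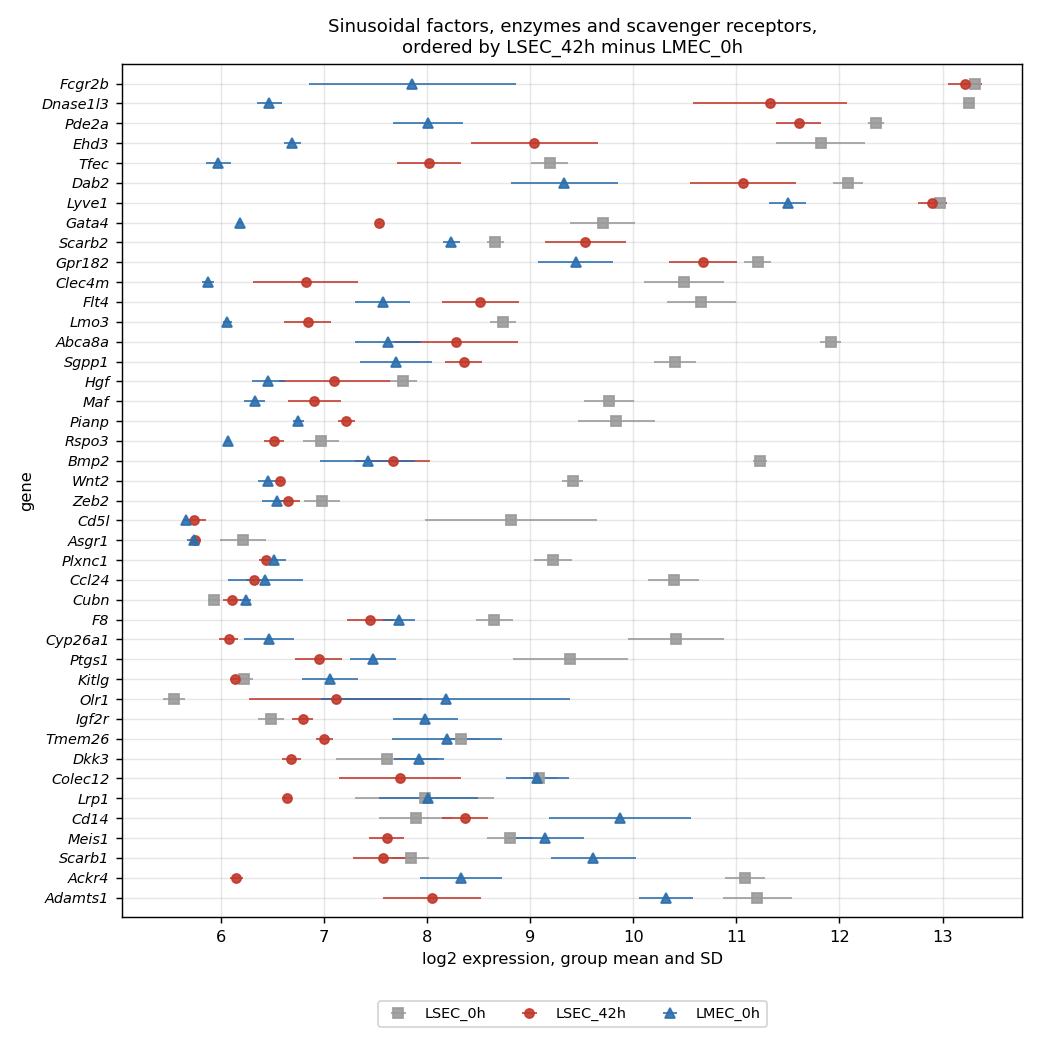
Mean log2 expression ± SD of 42 measured genes of the sinusoidal factor, sinusoidal enzyme and scavenger receptor lists in LSEC_0h, LSEC_42h and LMEC_0h, ordered by the difference of LSEC_42h from LMEC_0h. Fcgr2b, Dnase1l3 and Pde2a lie at the upper end and Adamts1 and Ackr4 at the lower end, and Bmp2, Wnt2 and Ccl24, at 0.24, 0.12 and -0.11, are among the genes not called.

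Of 13 scavenger and endocytic receptors, 5 were above lung at 42 h, 5 below and 3 not called, with a median of -0.13. The share above lung is near the 39.9% of all genes, and 22% of all genes were below. In fresh cells 6 were above and 5 below, where 27.7% and 19.8% of all genes were. Lyve1, the hyaluronan receptor gene of sinusoids and lymphatics, read 12.70, 13.02, 12.90 and 12.98 in LSEC_42h and 11.52, 11.60, 11.37, 11.72 and 11.28 in LMEC_0h, a 2.64-fold difference without overlap (limma adjusted p = 1.91e-08). Its distance was 1.48 in fresh cells and 1.40 at 42 h. Dab2, an adaptor gene of clathrin endocytosis, was 3.33-fold above lung. Clec4m, a C-type lectin gene of sinusoids, had been 24.5-fold above lung and was at least 1.48-fold above it at 42 h, its arrays running from 6.36 to 7.54. On the other side, the high density lipoprotein receptor gene Scarb1, the endotoxin co-receptor gene Cd14, Lrp1, Colec12 and Igf2r were 4.11, 2.83, 2.59, 2.52 and 2.28-fold below lung. The receptor gene Gpr182 was 2.35-fold above lung, and the lymphatic growth factor receptor gene Flt4 lay 0.95 above it after 3.09 in fresh cells.

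Genes of lung and continuous endothelium were almost all lower in the cultured liver cells. Of 33 measured members, 31 were lower in LSEC_42h, 1 was higher and 1 was not called, with a median of -2.51 on the log2 scale. In fresh liver cells 26 had been below lung, 1 above and 6 not called, with a median of -2.22. Of all genes 22% were lower and 39.9% higher at 42 h, and 19.8% and 27.7% in fresh cells. Car4, the membrane-bound carbonic anhydrase gene of lung capillaries, read 6.50, 6.42, 6.39 and 6.71 in LSEC_42h and 11.24, 11.07, 10.83, 11.43 and 11.12 in LMEC_0h, a 24.8-fold difference (limma adjusted p = 6.63e-15). Ace, which encodes the angiotensin-converting enzyme, was 15.4-fold below lung at 42 h and 39.9-fold below it in fresh cells. Thbd, the gene of the anticoagulant thrombomodulin, was 4.22-fold below lung fresh and 23.4-fold below at 42 h. Gja4, which encodes connexin 37, went the same way, from 3.38-fold to 19.2-fold below. Bmp4 was at least 10.2-fold below lung at 42 h. Receptor genes for adrenomedullin and related peptides, Calcrl and Ramp2, had been near lung in fresh cells, at -0.53 and -0.43, and were -2.54 and -2.06 at 42 h. Ager, in this list, is also an epithelial gene of the lung.

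Apln and Adgrl2 were the exceptions among the 33. Apln, which encodes the peptide apelin made by sprouting endothelium, read 9.69, 11.55, 9.96 and 9.16 in LSEC_42h and 10.43, 10.23, 9.91, 10.39 and 10.27 in LMEC_0h, against 7.28 ± 0.19 (SD, n = 5) in fresh liver cells. The groups overlapped (difference -0.16, 95% interval -0.80 to 0.49), and without LSEC_42h array 2 the difference was -0.64 (limma adjusted p = 0.00233). Adgrl2, a latrophilin adhesion receptor gene, was 1.6-fold above lung.

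**Figure D3:**
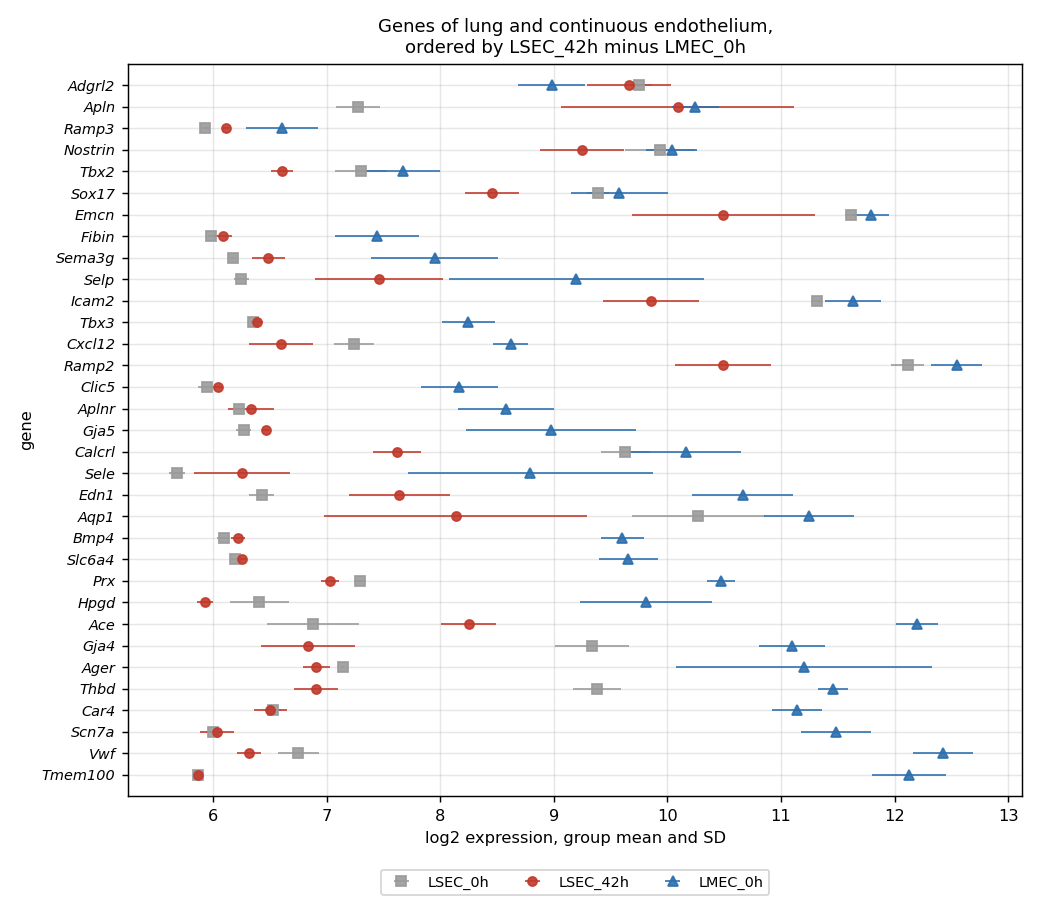
Mean log2 expression ± SD of the 33 measured genes of lung and continuous endothelium in LSEC_0h, LSEC_42h and LMEC_0h, ordered by the difference of LSEC_42h from LMEC_0h. Apln is the gene whose cultured mean comes near the lung mean from far below, and Tmem100, Vwf and Scn7a stay lowest relative to lung.

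Genes that all endothelium shares were counted next. The lung list above was made of genes of lung and continuous endothelium, so the distances of these lists from lung are not compared. Of 24 pan-endothelial genes, 13 were lower in LSEC_42h, 4 were higher and 7 were not called, with a median of -0.44. Over all genes 22% were lower and 39.9% higher. The count of genes above lung was 7 without LSEC_42h array 1 and 2 without array 3. Against a 1.5-fold change 4 of the 24 were lower and 2 higher. In fresh cells 3 had been below lung and 10 above, where 19.8% and 27.7% of all genes were. From LSEC_0h to LSEC_42h 16 fell, 4 rose and 4 were not called, where 20.8% of all genes fell and 29.7% rose. The median change was -0.65. In the lung list 13 of 33 fell, 4 rose and 16 were not called, with a median of -0.02. That list averaged 7.58 to 7.65 in LSEC_0h and the pan-endothelial list 10.26 to 10.42. The lung list thus had less room to fall, and its median is not set against the other. Cdh5 was 1.56-fold lower than in lung. Transcription factor genes of the lineage stayed close to lung: Fli1 differed by -0.03 (95% interval -0.32 to 0.27), Erg by 0.31 (95% interval -0.09 to 0.72) and Sox18 by 0.30 (95% interval -0.37 to 0.97). Without LSEC_42h array 1 both Erg (0.51) and Sox18 (0.71) were called higher in LSEC_42h. Nos3, the gene of endothelial nitric oxide synthase, had been 5.26-fold above lung in fresh liver cells and differed by 0.41 at 42 h (95% interval -0.06 to 0.88), or by 0.58 without array 1 (adjusted p = 0.0406). Clec14a, a lectin-like receptor gene of vessels, was 2.41-fold higher than in lung. Among 9 lymphatic genes, Reln, Lyve1, Nr2f2 and Flt4 were above lung and Ccl21, Pdpn and Mmrn1 below it. Ccl21 read 8.87, 11.22, 10.10, 11.24 and 11.57 in LMEC_0h and was at or below background in LSEC_42h, and Mmrn1 read 7.15, 8.99, 8.14, 8.84 and 9.48, so that lung arrays 19, 21 and 22 were the higher ones in both. Pdpn is also a lung epithelial gene.

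Caveolae, the small membrane pits typical of continuous endothelium, had their genes lower in the cultured cells. Of 10 measured members 8 were lower than lung, none was higher and 2 were not called, with a median of -1.63, against 7 lower in fresh cells. The shares of all genes were 22% lower and 39.9% higher at 42 h, and 19.8% lower in fresh cells. Cav1, which encodes the main coat protein, read 7.53, 9.02, 8.23 and 7.20 in LSEC_42h and 11.66, 11.52, 11.46, 11.56 and 10.77 in LMEC_0h, 10.5-fold apart without overlap (limma adjusted p = 9.56e-09). It was 15.9-fold below lung in fresh cells, and its change in culture, 0.59, was not called. Ehd2, which stabilises caveolae at the membrane, was 8.72-fold below lung. Cavin1 had risen by 0.75 in culture and was 1.51-fold below lung at 42 h. Cavin2 had been near the lung level in fresh cells (-0.11) and was 4.91-fold below it at 42 h.

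Junction genes were lower in 12 of 22 cases, higher in 4 and not called in 6, with a median of -0.49. Over all genes 22% were lower and 39.9% higher. Connexin genes Gja4 and Gja5, the tight junction gene Ocln, Jam2 and the plakoglobin gene Jup (5.19-fold) were below lung, and Jam3 (4.56-fold), Nectin2, F11r and Magi1 were above it. Jam3 read 9.06, 9.58, 9.37 and 9.36 in LSEC_42h and 7.25, 7.02, 7.27, 7.11 and 7.10 in LMEC_0h. Thus Jam2 and Jam3, 2 genes of 1 family, lay on opposite sides of lung without overlap of arrays.

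The actin cytoskeleton list had 22 of 36 members lower than in lung, 7 higher and 7 not called, with a median of -0.57. Of all genes 22% were lower and 39.9% higher. Against a 1.5-fold change 11 of the 36 were lower. Actb itself, the gene of beta-actin, was 2.72-fold lower, at 11.29 ± 0.11 (SD, n = 4) against 12.74 ± 0.14 (SD, n = 5). Ezr, which encodes the membrane linker ezrin, was 10.4-fold lower. Vim, which encodes the intermediate filament protein vimentin, had risen by 1.96 in culture and was 1.71-fold below lung at 42 h, its arrays reading 10.48, 12.34, 12.52 and 11.51 against 12.30 to 12.65. That call was lost when LSEC_42h array 1 or 12 or any 1 lung array was left out (limma adjusted p = 0.0533 to 0.241). It was also lost with array weights (-0.47, adjusted p = 0.236), with quantile normalization, without the intensity trend, with only the 9 arrays compared, without the LSEC_2h arrays and without LMEC_0h arrays 19 and 22 (adjusted p = 0.0518 to 0.15 for these 5). Smooth muscle genes in the list, Tagln, Tpm2 and Myl9, were lower by 2.47, 2.81 and 2.42 on the log2 scale, beside smooth muscle and pericyte marker means of 6.88 to 7.23 in LSEC_42h and 7.26 to 8.19 in LMEC_0h. The part of that cell type was not tested.

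Matrix and proteolysis genes were lower in 22 of 37 cases, higher in 7 and not called in 8, with a median of -1.06. All-gene shares were 22% lower and 39.9% higher. Plat, the gene of tissue plasminogen activator, read 6.70, 6.51, 6.43 and 6.80 in LSEC_42h and 11.41, 11.83, 10.97, 11.24 and 11.72 in LMEC_0h, 28.3-fold apart (limma adjusted p = 2.06e-14). Col15a1, a basement membrane collagen gene, and Fn1, the fibronectin gene, were 12-fold and 8.16-fold lower. Sparc had been near the lung level in fresh liver cells (0.05) and was 4.13-fold below it at 42 h. Above lung were the basement membrane genes Lama4, Nid2 and Lamc1, by 1.35, 1.04 and 0.66, and the metalloproteinase genes Mmp3, Mmp9 and Mmp10. Mmp3 ran from 6.08 to 9.89 across the 4 cultured arrays and was at least 2.63-fold above lung, where it was at or below background. None of 14 integrin genes was higher in LSEC_42h, 11 were lower and 3 were not called, with Itga3 8.22-fold and Itgb1, the shared beta subunit gene, 1.83-fold below lung. Against a 1.5-fold change 5 of the 14 were lower. The mesenchymal marker means of LMEC_0h given above stand beside these differences, and their part was not tested.

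In the list of TGF-beta, YAP and SRF responsive genes, 14 of 22 were lower in LSEC_42h, 3 were higher and 5 were not called, with a median of -0.68. Among all genes 22% were lower and 39.9% higher. Acvrl1, which encodes the endothelial BMP receptor ALK1, read 7.63, 7.66, 8.05 and 7.95 in LSEC_42h and 12.05, 12.14, 11.82, 12.22 and 11.96 in LMEC_0h, 18.6-fold apart (limma adjusted p = 1.77e-13). It had been 7.72-fold below lung in fresh cells. The BMP target genes Id1 and Smad6 were 8.83-fold and 5.92-fold lower. Ccn2, which encodes connective tissue growth factor, ran the other way, reading 12.85, 12.66, 12.23 and 12.64 against 10.84, 9.55, 11.14, 9.92 and 9.40, 5.36-fold higher in LSEC_42h without overlap. It had been 2.65-fold below lung in fresh cells, and its change in culture was 3.83. Of 12 Notch pathway genes 7 were lower, none was higher and 5 were not called. The target genes Hes1 and Hey2 were among the lower ones, at 3.84-fold and at least 2.6-fold, while the ligand gene Dll4 differed by -0.18 (95% interval -0.85 to 0.50), its cultured arrays running from 8.18 to 10.32.

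Tip cell and sprouting genes were split, with 5 of 21 higher, 9 lower and 7 not called, and a median of -0.18. The shares of all genes were 39.9% higher and 22% lower. Esm1, which encodes the proteoglycan endocan of sprouting vessels, read 12.48, 12.05, 11.81 and 12.86 in LSEC_42h and 9.22, 10.17, 9.60, 10.50 and 9.79 in LMEC_0h, 5.44-fold apart without overlap (limma adjusted p = 6.27e-07). In fresh cells it had been 4.52-fold below lung. Adm, the gene of the vasodilator adrenomedullin, was 5.57-fold and Angpt2, which destabilises vessels, 4.35-fold above lung. Cxcr4, the receptor gene for the chemokine CXCL12, had been 9.32-fold below lung in fresh liver cells, and at 42 h its arrays read 8.33, 9.24, 10.28 and 11.83 against 10.18, 8.99, 10.09, 10.11 and 9.97. The mean difference was 0.05 (95% interval -0.92 to 1.02), with cultured arrays on both sides of the lung arrays. Vegfa, the vascular growth factor gene, was 10.1-fold below lung.

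Of the lung-high organ genes, the 8 nearest to lung at 42 h were Cxcr4, Pde4b, Tes, Il33, S100a4, Il2rg, Prss23 and Car2. Their changes in culture lay between 1.12 and 3.27 on the log2 scale. The choice of these genes fixes that direction, so nothing is read from it beside the 29.7% of all genes called higher in culture. Pde4b, which encodes a phosphodiesterase for cyclic AMP, went from -3.15 to -0.35 (95% interval -0.75 to 0.04), and without LSEC_42h array 12 it was -0.51 (limma adjusted p = 0.0249). The others stayed below lung: the nuclear cytokine gene Il33 was 2.59-fold and Car2, a carbonic anhydrase gene, 3.9-fold lower.

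Immediate early genes, which are switched on within minutes by handling, stress or growth factors, were lower in the cultured cells. Of 38 measured, 31 were lower in LSEC_42h, 3 were higher and 4 were not called, with a median of -2.13. In fresh liver cells 28 had also been below lung, with a median of -1.4. All-gene shares were 22% lower and 39.9% higher at 42 h, and 19.8% lower in fresh cells. Fos read 6.40, 6.26, 6.19 and 6.06 in LSEC_42h and 12.08, 11.90, 12.17, 12.31 and 11.94 in LMEC_0h. It had been close to lung in fresh liver cells, at 11.78 ± 0.12 (SD, n = 5). Egr1 was 34-fold, Atf3 27.8-fold, Klf4 24.4-fold and Nr4a1 13.5-fold below lung. Klf2, a flow-responsive endothelial gene, had not been called in fresh cells (-0.50) and was 11.6-fold below lung at 42 h. Myc ran the other way and was 2.09-fold above lung, with Dusp6 and Arc. Arc was not called without LSEC_42h array 2 (limma adjusted p = 0.0773). Without LSEC_42h array 3 the calls of Dusp6 (limma adjusted p = 0.121) and Arc (adjusted p = 0.0574) were lost, and without LSEC_42h array 1 or 12 or LMEC_0h array 19, 21 or 22 that of Dusp6 was lost too. Without LMEC_0h arrays 19 and 22 there were 30 lower and 3 higher.

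Of 25 heat shock and chaperone genes 12 were lower, 8 were higher and 5 were not called. Among all genes 22% were lower and 39.9% higher. In the test against a 1.5-fold change, 7 of the 25 were lower and 5 higher. Hspa1b, the inducible HSP70 gene, read 8.93, 7.49, 7.42 and 7.13 in LSEC_42h and 12.33, 12.05, 12.59, 12.03 and 12.26 in LMEC_0h (22.8-fold, limma adjusted p = 2.05e-10), and Hspb1 was 6.73-fold lower. The cytosolic chaperonin genes Cct2, Cct3, Cct5 and Cct8 were higher by 1.09, 1, 1.13 and 1.23 on the log2 scale, and the mitochondrial chaperone gene Hspe1 was 2.58-fold higher.

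Inflammatory genes differed among the lung arrays themselves. The mean of 41 chemokine, cytokine and NF-kB target genes was 8.218, 9.346, 8.892, 8.648 and 9.505 on LMEC_0h arrays 18 to 22, so arrays 19 and 22 were highest, and 7.774 to 8.124 on the LSEC_42h arrays. Of the 41, 22 were lower in LSEC_42h, 5 were higher and 14 were not called, with a median of -0.68. The shares of all genes were 22% lower and 39.9% higher. Without arrays 19 and 22, 19 of the 41 were lower and 11 were higher, and without array 22 alone 8 were higher. These arrays were singled out by the means of this same list. Leaving them out favours calls higher in LSEC_42h, so nothing is read from the larger count. Il6, an inflammatory cytokine gene, read 7.95, 10.74, 9.35, 9 and 11 in LMEC_0h and was at or below background in LSEC_42h, at least 10.2-fold lower. The adhesion molecule genes Icam1 and Vcam1 were 9.58-fold and 10.5-fold lower, and the cytokine gene Il1b was 11-fold lower. Their cultured arrays did not overlap the lung arrays. Sele and Selp, the selectin genes of activated endothelium, were lower by at least 5.78-fold and by 3.34-fold, and array 18, with the lowest list mean, also had their lowest lung values (7.54 and 7.98).

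A few members of that list were at least as high in culture as in lung. Sod2, the mitochondrial superoxide dismutase gene, read 12.59, 11.95, 12.08 and 12.33 in LSEC_42h and 9.15, 11.44, 10.10, 9.76 and 11.58 in LMEC_0h, 3.56-fold higher. Ccl2, a monocyte chemokine gene, read 11.83, 12.01, 11.87 and 12.10 against 8.64, 11.21, 10.59, 10.02 and 11.85 and was 2.81-fold higher, with lung array 22 inside the cultured range. Cxcl1, a neutrophil chemokine gene, differed by 0.70 (limma adjusted p = 0.107) over all arrays and by 1.27 (adjusted p = 0.00307) without arrays 19 and 22. Without array 22 alone it differed by 0.96 (adjusted p = 0.0229). Cxcl1 belongs to the list by which these arrays were singled out, so nothing is read from its calls without them. Lcn2, an iron-siderophore binding protein gene, was called higher, but its cultured arrays read 12.05, 7.59, 11.04 and 8.44 and overlapped lung at 6.82 to 8.11.

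Interferon response genes were lower in 19 of 25 cases and higher in 1, with 5 not called and a median of -1.58. In fresh liver cells 5 had been lower, 3 higher and 17 not called, with a median of 0.02. Over all genes 22% were lower and 39.9% higher at 42 h, and 19.8% and 27.7% in fresh cells. Isg15, which encodes a ubiquitin-like interferon-induced protein, read 7.37, 8.05, 7.06 and 7.22 in LSEC_42h and 10.23, 10.68, 10.25, 10.56 and 11.14 in LMEC_0h, 8.88-fold apart (limma adjusted p = 1.8e-07). The interferon regulatory factor gene Irf1 and the guanylate-binding protein gene Gbp2 were 10.6-fold and 21.1-fold lower. Ifitm1 was the member above lung, by 1.97. Of 23 antigen presentation genes 15 were lower, 1 was higher and 7 were not called. Cd74, the invariant chain gene of class II presentation, was 28.8-fold lower, and its lung arrays read 11.51, 11.22, 12.71, 11.69 and 12.05, with array 20 highest. The class II genes RT1-Da and RT1-Ba were 16.7-fold and 17.3-fold lower and were also highest on array 20. The mean of 13 macrophage markers was 7.32 to 8.51 in LMEC_0h, with array 20 highest, and 6.61 to 7.04 in LSEC_42h; its part in the class II difference was not tested.

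**Figure D4:**
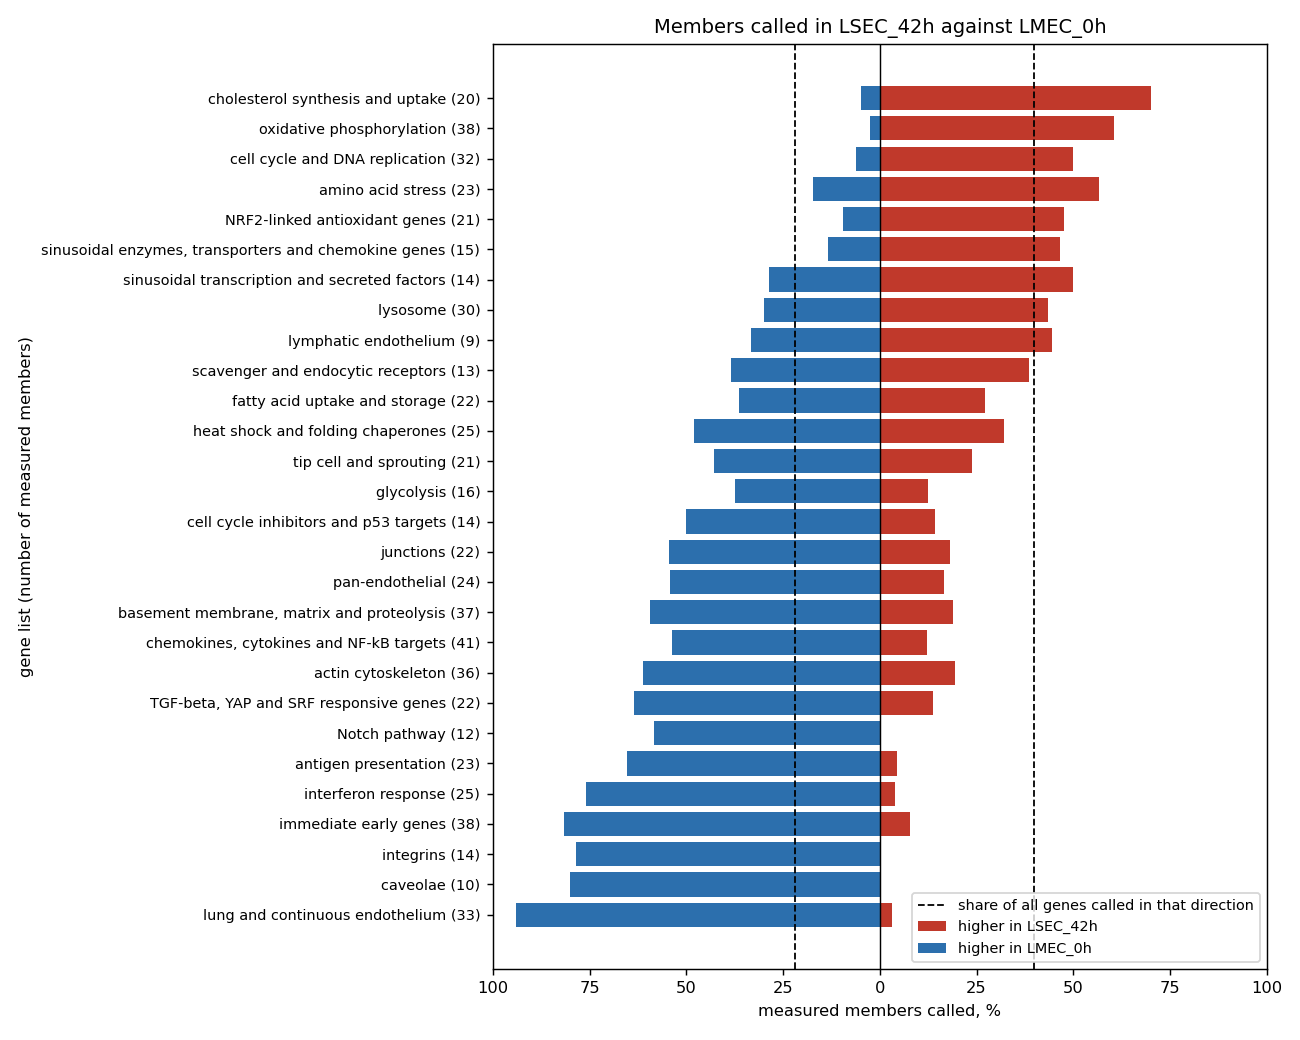
Share of measured members, in percent, called higher (right) or lower (left) in LSEC_42h than in LMEC_0h for 28 gene lists. The dashed lines mark the shares over all 11018 genes, 39.9% higher and 22% lower. Lists of continuous endothelium, immediate early, integrin and interferon genes lie far to the lower side, and cholesterol and oxidative phosphorylation genes to the higher side.

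Of 21 NRF2-linked antioxidant genes, 10 were higher in LSEC_42h, 2 were lower and 9 were not called, with a median of 0.41, where 39.9% of all genes were higher. Against a 1.5-fold change in limma 1 of the 21 was called higher. Akr1b8 stood apart within the list. The next largest differences were those of Osgin1, the malic enzyme gene Me1, the transketolase gene Tkt, Ugdh and Taldo1, by 0.92, 0.90, 0.88, 0.75 and 0.74. Nqo1, which encodes a quinone reductase and is a common readout of NRF2, read 10.42, 8.82, 8.78 and 9.48 against 8.30, 8.98, 8.63, 8.55 and 9.08, and its difference of 0.67 was not called (limma adjusted p = 0.0929), but was called at 0.87 without LSEC_42h array 3 (adjusted p = 0.0454). The antioxidant response element core, TGACNNNGC on either strand, occurred in the promoter windows of 4 of 18 list members (22.2%) and in 12.2% of all 27457 windows. A match is a description of letters only.

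Fatty acid genes had no common direction, with 6 of 22 higher, 8 lower and 8 not called. All-gene shares were 39.9% higher and 22% lower. Fabp4 read 12.87, 12.79, 13.21 and 13.21 in LSEC_42h and 7.87, 8.68, 8.36, 9.06 and 9.05 in LMEC_0h, after 7.65 ± 0.33 (SD, n = 5) in fresh liver cells. Lpl, which encodes lipoprotein lipase, read 6.65, 6.76, 6.90 and 7.17 against 10.36, 10.64, 10.70, 10.83 and 10.55, 13.4-fold lower. The groups did not overlap for either gene. Of 16 glycolysis genes 2 were higher, Pgk1 by 2.64-fold and Ldhb by 0.83 on the log2 scale, 6 were lower and 8 were not called. Without LSEC_42h array 3 there were 4 higher, and without array 1 there were 3 lower. Ugp2, outside that list, read 12.49, 12.22, 12.43 and 12.35 against 8.78, 8.64, 8.96, 8.79 and 8.76.

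Cholesterol synthesis and uptake genes were higher in 14 of 20 cases, lower in 1 and not called in 5, with a median of 0.53, where 39.9% of all genes were higher. Against a 1.5-fold change 4 of the 20 were called higher. In fresh cells 2 had been higher and 6 lower than lung, with a median of 0.03, where 27.7% and 19.8% of all genes were. The sterol pathway enzyme genes Msmo1, Sqle and Fdft1 were 3.38, 3.07 and 2.11-fold higher. Sqle, which encodes squalene epoxidase, read 8.13, 9.38, 8.43 and 8.48 in LSEC_42h and 7.14, 6.76, 7.19, 6.86 and 6.99 in LMEC_0h, without overlap (limma adjusted p = 2.55e-06). LSEC_42h array 2 was highest for Sqle, Msmo1 and Fdft1. The regulator gene Srebf2 was lower by 0.42 and was the called exception, while there were 3 lower members without LSEC_42h array 2 and 2 without LMEC_0h array 20. The letters TCACNCCAC, a sterol regulatory element, were in none of 15 promoter windows, against 1.13% of all windows.

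Genes of the response to amino acid shortage, which the factor ATF4 drives through C/EBP-ATF response elements, were higher in 13 of 23 cases, lower in 4 and not called in 6, with a median of 0.72, where 39.9% of all genes were higher. Against a 1.5-fold change 6 of the 23 were called higher. In fresh liver cells 3 had been higher and 8 lower than lung, with a median of -0.35, where 27.7% and 19.8% of all genes were. Nars1, which charges tRNA with asparagine, read 11.64, 11.39, 11.12 and 11.05 in LSEC_42h and 9.11, 9.26, 9.06, 8.99 and 9.37 in LMEC_0h, 4.4-fold apart without overlap (limma adjusted p = 3.73e-11). Aars1, the alanyl-tRNA synthetase gene, was 2.97-fold and Slc7a1, a cationic amino acid transporter gene, 1.97-fold higher, with the 4 cultured Slc7a1 arrays at 7.54 to 8.49 overlapping lung at 6.67 to 7.60. The C/EBP-ATF letters TGATGNAAN, searched on both strands after the list counts were known, were found in the promoter windows of 5 of 21 members (23.8%), Trib3, Chac1, Slc7a1, Aars1 and Nars1, and in 3.8% of all 27457 windows. Of these 5 genes the last 3 were called higher, Trib3 was called without LSEC_42h array 3 (0.60, limma adjusted p = 0.0239), and Chac1 without LMEC_0h arrays 19 and 22 (0.87, adjusted p = 0.000609). The 3 called over all arrays are 1 transporter and 2 synthetase genes, and their windows are shown because they hold the letters and belong to called genes, a choice made by the call itself. They are RefSeq sequences of build GRCr8 from 250 bases before to 50 bases after the gene start, in the direction of the gene, with the matching letters in capitals. Slc7a1 lies at chr12:11664238-11664537 on the plus strand and has 1 match, Aars1 at chr19:55908232-55908531 on the plus strand and has 2 matches, both read on the opposite strand, and Nars1 at chr18:60275733-60276032 on the minus strand and has 1 match.
Slc7a1: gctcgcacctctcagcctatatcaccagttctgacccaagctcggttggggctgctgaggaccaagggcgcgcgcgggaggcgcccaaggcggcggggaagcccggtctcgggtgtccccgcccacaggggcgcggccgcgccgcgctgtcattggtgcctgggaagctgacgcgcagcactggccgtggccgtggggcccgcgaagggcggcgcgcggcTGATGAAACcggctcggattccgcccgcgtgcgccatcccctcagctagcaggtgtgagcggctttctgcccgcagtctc
Aars1: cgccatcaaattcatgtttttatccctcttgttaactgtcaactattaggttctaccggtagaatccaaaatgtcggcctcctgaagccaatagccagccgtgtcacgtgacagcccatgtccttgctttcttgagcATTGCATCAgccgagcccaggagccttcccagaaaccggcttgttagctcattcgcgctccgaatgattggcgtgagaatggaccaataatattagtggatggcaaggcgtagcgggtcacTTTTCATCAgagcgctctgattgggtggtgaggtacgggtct
Nars1: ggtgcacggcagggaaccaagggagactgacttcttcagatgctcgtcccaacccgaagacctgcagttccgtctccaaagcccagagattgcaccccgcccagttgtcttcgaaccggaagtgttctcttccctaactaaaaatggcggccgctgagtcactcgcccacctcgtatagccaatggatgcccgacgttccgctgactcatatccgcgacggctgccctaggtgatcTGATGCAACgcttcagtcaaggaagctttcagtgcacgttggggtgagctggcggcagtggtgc
These matches describe the letters in the windows and say nothing of binding.

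Other synthesis genes of the same list were also higher. Psat1, of serine synthesis, read 9.43, 9.99, 8.27 and 7.64 against 6.39, 6.40, 6.94, 6.35 and 7.10 (4.58-fold), the mitochondrial serine hydroxymethyltransferase gene Shmt2 was 3.66-fold and the glycyl-tRNA synthetase gene Gars1 3.89-fold higher. LSEC_42h arrays 1 and 2 were above arrays 3 and 12 for Psat1, Shmt2 and Gars1. Asns, the asparagine synthetase gene, read 10.86, 10.14, 8.69 and 8.68 against 8.74, 8.99, 8.58, 9.23 and 8.84, so that 2 cultured arrays lay above lung and 2 within it. Its difference of 0.72 was not called (limma adjusted p = 0.129), and was called at 1.02 without array 3 or without array 12. The stress regulators Atf4, Ddit3 and Cebpb were lower than in lung, by 0.93, 0.78 and 1.56 on the log2 scale.

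Proliferation genes were higher in 16 of 32 cases, lower in 2 and not called in 14, with a median of 0.4, where 39.9% of all genes were higher. Against a 1.5-fold change 6 of the 32 were called higher. The list averaged 8.333 on LSEC_42h array 2 and 7.559, 7.64 and 7.332 on arrays 1, 3 and 12, against 7.053 to 7.482 on the lung arrays, so array 2 was highest and array 12 lay within the lung range. The replication genes Mcm7, Prim1 and Tyms were 3.09, 2.42 and 2.33-fold higher. Mcm7, a subunit gene of the replicative helicase, read 10.25, 10.45, 9.95 and 9.58 against 8.47, 8.39, 8.37, 8.5 and 8.42 (limma adjusted p = 5.66e-08). Mitotic genes such as Top2a, Cdk1 and Plk1 were not called, at 0.13, 0.25 and 0.18, and Ccnd1, the cyclin D1 gene, was 4.15-fold lower. Among 14 inhibitor and p53 target genes 7 were lower, 2 were higher and 5 were not called, where 22% of all genes were lower. Against a 1.5-fold change 1 of the 14 was lower. Cdkn1a, which encodes p21, was lower by 1.84.

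Oxidative phosphorylation genes were higher in 23 of 38 cases, lower in 1 and not called in 14, with a median of 0.43, where 39.9% of all genes were higher. Only 3 of the 38 were called higher against a 1.5-fold change. Without LMEC_0h array 22 there were 2 lower, and without arrays 19 and 22 there were 3. The complex I gene Ndufs1 and the cytochrome c1 gene Cyc1 were 2.05-fold and 1.97-fold higher. In fresh liver cells 3 had been higher and 4 lower than lung, where 27.7% and 19.8% of all genes were. Of 71 cytosolic ribosomal protein genes listed only 3 had a named probe set, and Rps6, at 13.47 ± 0.10 (SD, n = 4) against 12.53 ± 0.05 (SD, n = 5), was 1.92-fold higher. Of 30 lysosome genes 13 were higher, 9 lower and 8 not called, with a median of 0.05. The shares of all genes, 39.9% higher and 22% lower, were not far from these. In fresh cells 22 lysosome genes had been higher than in lung, where 27.7% of all genes were. The cathepsin genes Ctsk and Ctsl were higher, by 1.83 and 1.28, and Ctsh and Ctsd were lower, at -2.61 and -0.88.

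Markers of other cells were lower or not called in LSEC_42h for most lists. Among all genes 22% were lower and 39.9% higher. None of 25 hepatocyte markers was higher than in lung and 3 were lower, including Serpina1 and Fgg. When limma used only the 9 arrays compared, 10 hepatocyte markers were called higher and 5 lower, and the array means of the list stay as given above. None of 13 macrophage markers was higher and 7 were lower, or 4 without LMEC_0h array 20 and 4 without LSEC_42h array 12. Of 19 lung epithelial markers 18 were lower, of 24 mesenchymal markers 20 were lower and 2, Hgf and Reln, higher, and of 12 cholangiocyte and other epithelial markers 9 were lower. T, NK and B cell markers were lower in 13 of 23 cases, with lung array means of 6.4 to 7.25 and cultured means of 6.22 to 6.27. Against a 1.5-fold change 2 of the 23 were lower. Among 12 smooth muscle and pericyte markers 8 were lower and 2 were higher. The 2 higher ones, Kcnj8 and Abcc9, encode subunits of the same potassium channel, and Kcnj8 read 9.35, 10.23, 10.22 and 10.36 in LSEC_42h and 6.44, 6.43, 6.39, 6.58 and 6.65 in LMEC_0h. In fresh liver cells Kcnj8 was 4.26-fold above lung.

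**Figure D5:**
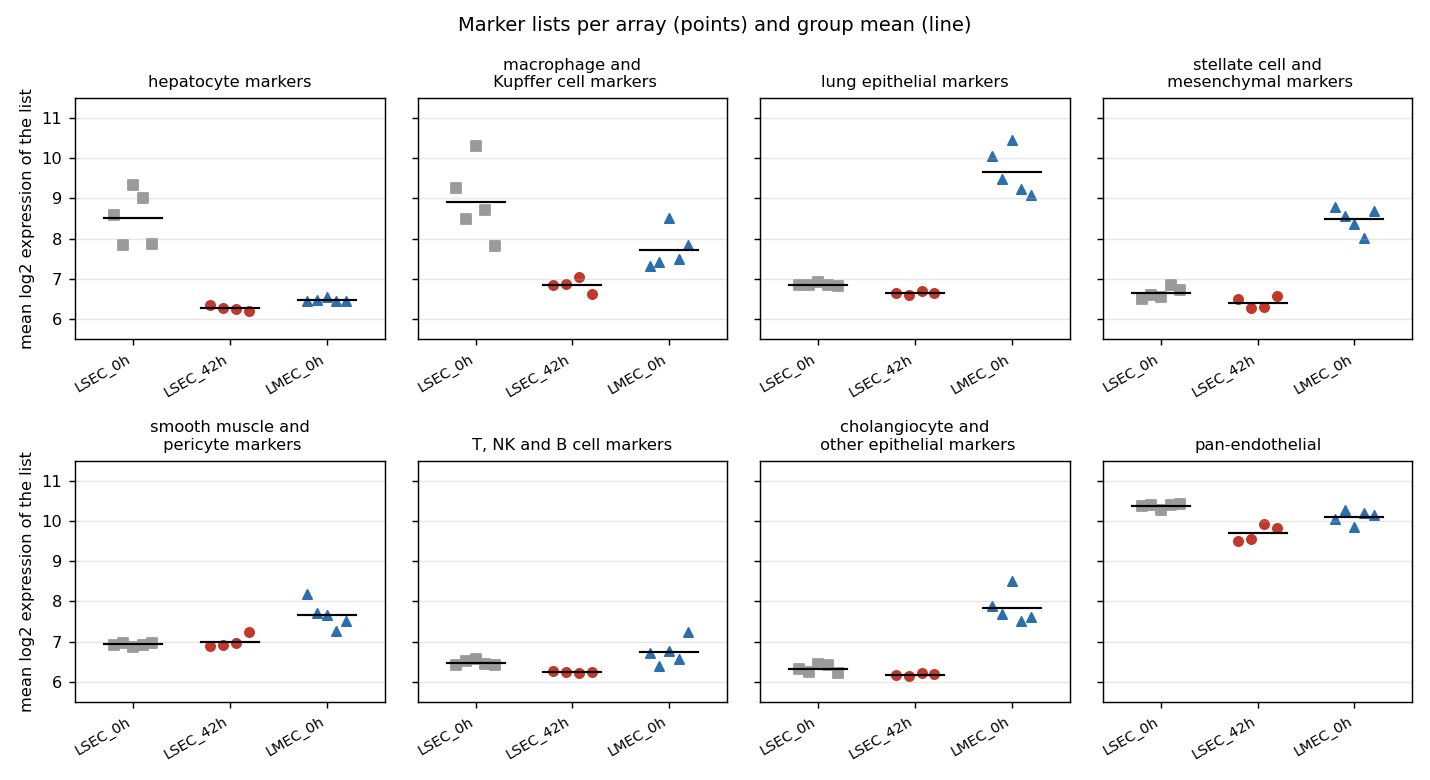
Mean log2 expression per array over the members of 8 marker lists in LSEC_0h, LSEC_42h and LMEC_0h. Lung epithelial, mesenchymal and other epithelial markers are highest in LMEC_0h, hepatocyte and macrophage markers are highest in LSEC_0h, and the pan-endothelial means of the 3 groups lie within 9.51 to 10.42.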

How the data were processed

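Rat endothelial RNA was labelled as biotin cRNA and hybridised to Affymetrix arrays, per the labels' protocols. The deposited values are log2 expression, made by the authors. No source used here states how they corrected background, normalized or summarised probes. The log2 unit rests on the range of the values, 5.11 to 13.7, and on array medians between 7.1 and 7.19. Of 11484 probe sets, 57 were array controls and 11018 had 1 gene symbol through the platform table and RefSeq. The 409 without a symbol were left out of the tests, and no gene had more than 1 probe set. Arrays have no counts, so their number sets the precision.

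Groups were taken from the sample titles. limma 3.58.1 under R 4.3.3 was fitted to all 18 arrays at once, with a mean per group and an intensity trend. Tests were two-sided with Benjamini-Hochberg adjustment over all genes, called at 0.05. The 39 gene lists, 10 of them markers of other cell types, were described by counts and medians. Promoter windows (300 bases) were searched for 4 motifs, 2 of which were added after the list counts were known.

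Named genes were the 12 furthest each way, provided no arrays overlapped between groups and the higher group averaged above 7.15, the largest called members of each list, and genes at least 8-fold apart between the fresh organs, ranked by their difference at 42 h. A set of endothelial genes, the rest of the lists, and genes with no call were named as well, some after their values were seen. The members and lists were chosen with earlier results of these data known. The procedure was tested on simulated data. Python 3.11.15 with pandas 2.3.3 and scipy 1.17.1 made the tables and the exact permutation tests. Alternatives were array weights, quantile normalization, no trend, a filter on dim genes (6803 kept), all gene probe sets, fewer groups in the fit, a test against a 1.5-fold change and each array left out.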

Additional observations from a re-analysis of the deposited data

Results flagged for a closer look

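In 496 sets of 4 or 5 values, the arrays of LSEC_42h or LMEC_0h for a gene named in the text, a list mean or an RNA measure, 18 had 1 array far from the others by Dixon's test. Chance flags about 1 in 20 such sets.

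Lung array 20 stood apart in list means and in 1 gene. Its mean of 8 neutrophil markers was 7.5 against 6.3 to 6.51 on the other lung arrays, and its mean of 5 mesothelial markers was 7.6 against 6.37 to 6.46. Of the neutrophil markers 2 were higher in LSEC_42h, 2 lower and 4 not called, and of the mesothelial markers 1 was higher, 1 lower and 3 not called. The shares of all genes were 39.9% higher and 22% lower. No neutrophil marker was lower (0 of 8) when any 1 cultured array was left out, and 1 was lower without lung array 22. Without lung array 19, 20 or 22, 2 mesothelial markers were lower. The tip cell mean of lung array 20, 8.94, was below the 9.17 to 9.22 of the others, and Adamts1 read 9.86 against 10.37 to 10.53.

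Lung array 22 was high in the Actb 3′ minus 5′ difference, at 1.34 against 0.97 to 0.98, and low in Cav1, at 10.77 against 11.46 to 11.66. It was also low in Cct5 (9.91 against 10.25 to 10.29) and high in Ctsk (6.82 against 6.61 to 6.66) and Gc (6.11 against 5.98 to 6.01). Lung array 19 was low in Cxcr4, at 8.99 against 9.97 to 10.18, and lung array 18 was high in Pde4b, at 9.87 against 9.17 to 9.24.

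Among the cultured arrays, array 1 was high in Adgrl2 (10.21 against 9.43 to 9.52) and low in Kcnj8 (9.35 against 10.22 to 10.36). Array 2 was low in Nr2f2 (8.19 against 8.7 to 8.8), and array 3 was high in Gja4 (7.46 against 6.59 to 6.65) and low in Pdpn (6.23 against 6.34 to 6.35). Array 12 was high in the metalloproteinase gene Mmp10, at 8.63 against 6.14 to 6.49, and low in RT1-Ba, at 6.23 against 6.46 to 6.5.

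The poly-A control probe sets, which measure no rat gene, averaged up to 7.86 on a LSEC_42h array, above the 5.66 to 5.68 of the LMEC_0h arrays.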

How the results depend on the processing

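Against a 1.5-fold change in limma, 1523 genes were called between LSEC_42h and LMEC_0h, 706 higher and 817 lower, in place of 6814. The same test called 1088 genes between LSEC_0h and LMEC_0h and 1035 between LSEC_42h and LSEC_0h. The other alternatives kept each of these gene totals within 1.5 times. Lists with lower members in LSEC_42h also shrank against a 1.5-fold change. Junction genes were then lower in 7 of 22 cases and TGF-beta, YAP and SRF responsive genes in 9 of 22. Interferon response genes were lower in 12 of 25 cases, antigen presentation genes in 9 of 23 and macrophage markers in 3 of 13. Genes of lung and continuous endothelium were lower in 28 of 33 cases and immediate early genes in 27 of 38. Leaving out 1 array at a time gave 6353 to 6824 genes between LSEC_42h and LMEC_0h, of which 1326 to 1456 were at least 2-fold apart. The Actb 3′ minus 5′ difference was 0.78 to 0.87 without 1 array. Its adjusted exact permutation p was then 0.0571 to 0.0714, the smallest that so few arrays allow. Of 208 genes named in the text, none was called in opposite directions and 190 kept their call under every alternative but the 1.5-fold test. The calls of Arc, Dusp6 and Vim were lost when single arrays were left out, and that of Vim under several other alternatives too. No paired analysis was possible because the groups share no replicate number. The labels tie no array to an animal, so p-values measure the spread between arrays, which may be technical. Organ, culture and the difference in poly-A controls cannot be told apart in this comparison.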

Other observations

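Of 9 erythroid and platelet markers, 4 were lower in LSEC_42h, 1 was higher and 4 were not called. Over all genes 22% were lower and 39.9% higher. The 1 higher call was lost (0 of 9) without LSEC_42h array 1, 2 or 12 or LMEC_0h array 18, 19 or 20. Hbb, the beta-globin gene, read 10.87, 8.67, 10.10, 9.68 and 9.40 in LMEC_0h and 6.56, 6.61, 6.60 and 6.57 in LSEC_42h, 8.93-fold apart without overlap (limma adjusted p = 6.32e-08), and 6.81 ± 0.31 (SD, n = 5) in fresh liver cells.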
